A study of Mus musculus with 4 samples.

Results

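The genes described here are Dmrt1, Dmrt2, Dmrt3, Dmrta1, Dmrta2 and Wt1, 6 of the 24421 genes in the expression table. They were chosen by symbol as genes linked to dI6 neurons or close relatives of such a gene, and all 6 have a row in the table. The 4 RNA-seq libraries were made from GFP-positive cells that had been purified by sorting from mouse neural tube at E11.5. The 2 Prdm13 Het libraries came from embryos with 1 copy of a GFP knock-in that disrupts Prdm13 (Prdm13GFP/+), and the 2 Prdm13 Homo libraries from embryos with the knock-in on both copies (Prdm13GFP/GFP). The controls therefore carried 1 disrupted allele too, and the sorted cells were those in which the Prdm13 locus was, or had recently been, active. RNA of 7 Het and of 9 Homo embryos was combined into 1 pool per genotype before library preparation. Both libraries of a pool are technical replicates, and the p-values below therefore measure the spread between libraries and not that between embryos.

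dI6 neurons are born at the boundary between the dorsal and the ventral spinal cord, and are mostly inhibitory neurons that project to circuits for walking. They share Lbx1, Pax2, Lhx1 and Lhx5 with the dI4 neurons born dorsal to them, while the transcription factors DMRT3 and WT1 mark subsets of dI6 cells. DMRT proteins bind DNA through the DM domain, a zinc finger first known from sex determination genes, and WT1 is a zinc finger protein best known from kidney and gonad. Dmrt1 acts in the gonad, Dmrt2 in somites, and Dmrta1 and Dmrta2 are paralogs that act in neural progenitors, Dmrta2 above all in the forebrain.

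Of the 6 genes, Dmrt3 alone was expressed above the level at which genes were tested, and it was 2.24-fold lower in the Homo than in the Het libraries. Dmrta1 was lower by a larger ratio, but on 40 reads in all. Dmrta2 was within a small margin of its Het level, Wt1 and Dmrt1 had too few reads to tell, and Dmrt2 had none. In sorted bulk RNA, fewer cells of a type and less RNA per cell cannot be told apart.

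Levels are given as RPKM, reads per kilobase of exon scaled by library size, which the authors had scaled between libraries. The number of reads behind each value was recovered from the RPKM values themselves, and the libraries held 12001655 to 19090623 such reads. Genes were tested with limma on log2(RPKM + 0.1) where the mean RPKM was at least 1 in either genotype (12046 genes), and were called at an adjusted p under 0.05 with a fold of at least 1.5. In that test 762 genes, 6.33% of those tested, were called, 440 of them higher and 322 lower in Homo. Prdm13 itself was at 113.9 and 126.8 RPKM in the Het and at 309.5 and 324.5 RPKM in the Homo libraries. In Homo these reads come from the disrupted locus, so they do not check for loss of the protein.

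Dmrt1, Dmrt3 and Dmrt2 lie in that order on chromosome 19 within 173 kb (GRCm38.p6, RefSeq, as for all positions below). Dmrt1 (gene ID 50796) spans chr19:25505618-25604328, Dmrt3 (240590) chr19:25610246-25623921 and Dmrt2 (226049) chr19:25672394-25679013. Only 5.92 kb separate Dmrt1 from Dmrt3, and 48.5 kb separate Dmrt3 from Dmrt2. The paralogs lie apart on chromosome 4, Dmrta1 (242523) at chr4:89688198-89694766 and Dmrta2 (242620) at chr4:109977989-109983691. Wt1 (22431) is at chr2:105126529-105173614.

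The DNA before the start sites of the 2 paralogs is shown because one was lower in Homo and the other was not clearly so. Both stretches are from RefSeq on the plus strand, and capitals mark the E-box CANNTG, the core to which basic helix-loop-helix factors such as NEUROG1 and NEUROG2 bind. The Dmrta1 stretch covers chr4:89687948-89688197 and ends at the base before the start site. The Dmrta2 stretch covers chr4:109977814-109977988 and ends 37 bases before the start site used in the promoter set.
Dmrta1: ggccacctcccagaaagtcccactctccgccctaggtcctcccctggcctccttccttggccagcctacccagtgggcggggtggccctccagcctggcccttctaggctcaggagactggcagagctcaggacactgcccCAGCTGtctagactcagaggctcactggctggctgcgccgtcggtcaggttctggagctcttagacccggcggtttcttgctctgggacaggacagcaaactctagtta
Dmrta2: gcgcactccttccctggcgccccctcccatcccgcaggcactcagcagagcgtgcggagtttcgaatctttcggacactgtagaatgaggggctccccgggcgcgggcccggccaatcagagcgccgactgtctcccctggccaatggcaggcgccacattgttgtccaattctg
The Dmrta1 stretch of 250 bases holds 1 E-box and the shorter Dmrta2 stretch of 175 bases 0, so these counts are not on equal lengths. The motif reads the same on both strands with any middle bases, so a search of 1 strand covers both. In windows of 300 bases around the start site (250 before, 50 after), Dmrt3 had 2 E-boxes, Dmrta1 and Dmrta2 had 1 each and Dmrt2 had 0. At least 1 E-box was present in 72.3% and at least 2 in 39.6% of all 32851 promoter windows. Windows were found for 4 of the 6 genes, all but Dmrt1 and Wt1. A match describes the letters only, and binding was not measured in these libraries.

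Dmrt3, the DM domain factor of dI6 commissural neurons, was at 2.49 and 2.56 RPKM in the Het libraries and at 1.34 and 0.917 RPKM in the Homo libraries. Both Homo libraries were below both Het libraries, as in 30.3% of the genes tested. Behind these values were 69 and 112 reads in Het and 52 and 30 reads in Homo. The mean was 2.52 ± 0.0444 RPKM in Het and 1.13 ± 0.297 RPKM in Homo (SD, n = 2 libraries each). The log2 fold change was -1.12 with a standard error of 0.203 (95% interval -1.60 to -0.63; limma, adjusted p = 0.0125), and Dmrt3 was called lower. Among the genes tested, 2.67% were called lower, and Dmrt3 lay at percentile 1.25 of the log2 fold changes and percentile 9.25 of the mean levels. With 2 libraries against 2, the exact two-sided permutation test of a single gene cannot go below p = 0.33, which is what Dmrt3 reached.

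Each fit with 1 library left out has a lone library in 1 genotype, which is assumed to vary like the other genotype. Without Het replicate 1, Het replicate 2 or Homo replicate 2 the adjusted p rose to 0.0626, 0.0771 and 0.0564, while the log2 fold change stayed between -1.14 and -0.87. The Homo libraries differed from each other by 0.50 on the log2 scale in Dmrt3, against a median of 0.165 for the 1773 tested genes with a mean of 1 to 3 RPKM. The Het libraries differed by 0.03, against a median of 0.172 for the same genes. The Het libraries held 181 Dmrt3 reads and the Homo libraries 82, a ratio of reads per library size of 0.452 with a 95% exact interval of 0.344 to 0.591. Such intervals cover counting error only.

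**Figure D1:**
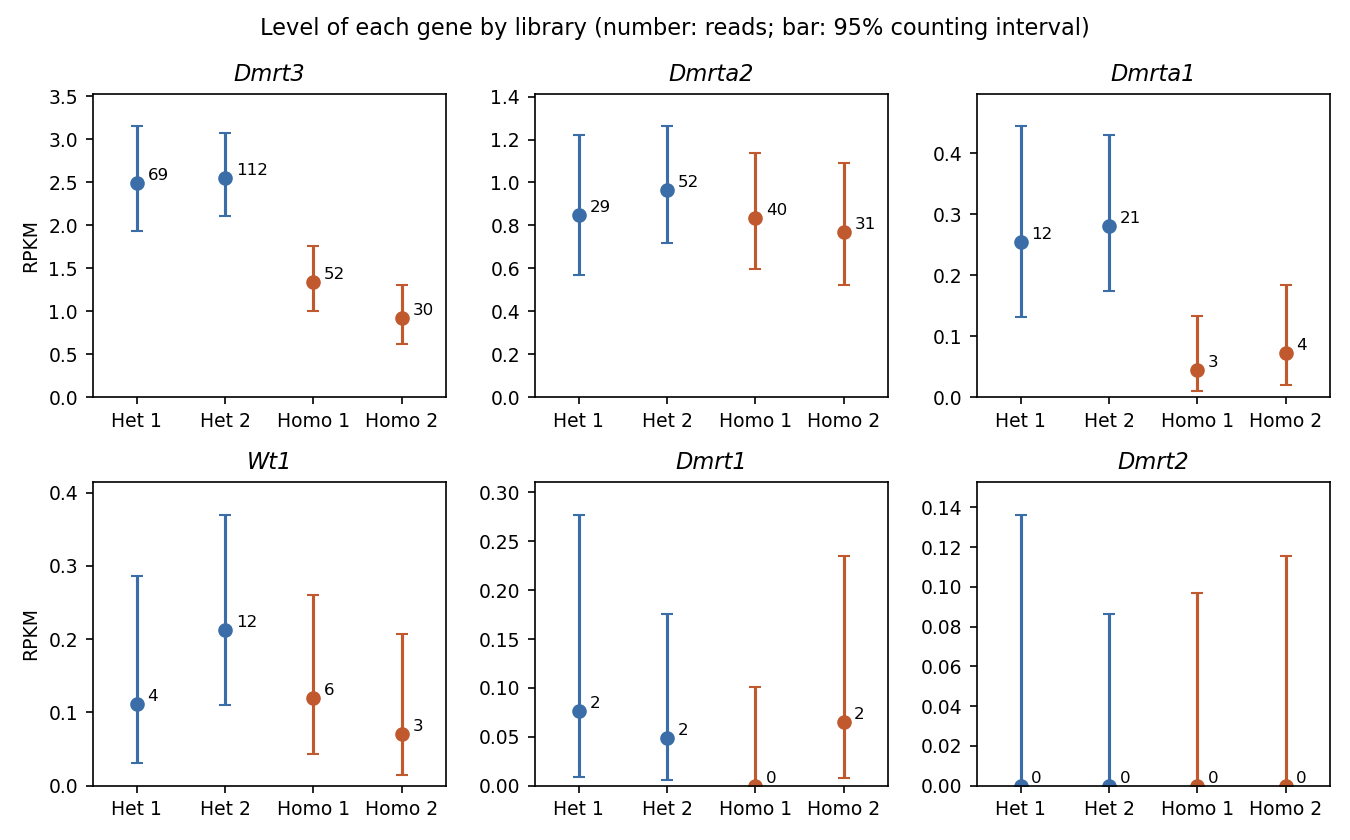
RPKM of the 6 genes in each of the 4 libraries, 1 panel per gene with its own axis from 0. Points are the RPKM values, numbers beside them the reads, and bars the 95% exact Poisson intervals; Dmrt3 falls from 2.49 and 2.56 RPKM in Het to 1.34 and 0.917 RPKM in Homo, and Dmrt2 has 0 reads throughout.

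Dmrta1, a DM domain gene of neural progenitors, was at 0.255 and 0.281 RPKM in the Het libraries and at 0.0453 and 0.0718 RPKM in the Homo libraries. These are 12 and 21 reads in Het and 3 and 4 reads in Homo, and the genotypes did not overlap. Of the genes with a value above 0 but under the test level, 14.4% had both Homo libraries below both Het libraries. The ratio of reads per library size, Homo over Het, was 0.212 with a 95% exact interval of 0.0791 to 0.487. Dmrta1 did enter a test of the recovered reads with limma voom, which took the 13536 genes with at least 10 reads in at least 2 libraries. It met that condition through its 2 Het libraries alone, so a gene with this entry had to be higher in Het, and the test is no independent support. There its log2 fold change was -2.11 with a standard error of 0.482 (95% interval -3.11 to -1.11; adjusted p = 0.00184), which passed the threshold, as did 3.35% of genes in the lower direction. When limma was run on the RPKM values with no lower limit, the change was -1.22 with an adjusted p of 0.0867 and did not pass, beside 0.0573% of all genes that were called lower in that run. The pseudocount of 0.1 added there is larger than either Homo value.

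Dmrta2, the paralog of Dmrta1, was at 0.850 and 0.963 RPKM in the Het libraries and at 0.835 and 0.769 RPKM in the Homo libraries. Its 152 reads rank it next after Dmrt3 among the 6 genes, with 29 and 52 in Het and 40 and 31 in Homo. The Homo libraries lay just below the Het libraries, with 0.850 and 0.835 RPKM as the nearest pair. Such an order held for 14.4% of the genes under the test level with a value above 0. The read ratio was 0.875 with a 95% exact interval of 0.627 to 1.22. In limma voom the log2 fold change was -0.19 with a standard error of 0.246 (95% interval -0.70 to 0.32; adjusted p = 0.633). A decrease to 0.617 times the Het level and an increase to 1.25 times it both lie within that interval.

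The read ratios of the 2 paralogs had intervals that did not overlap. Dmrta2 was 3.34 and 3.42 times the level of Dmrta1 in the Het libraries, and 18.4 and 10.7 times in the Homo libraries. The Dmrta1 values in Homo rest on 3 and 4 reads, so the size of the Homo ratio is loose. Dmrt3 was 2.93 and 2.65 times the level of Dmrta2 in Het and 1.60 and 1.19 times in Homo. In Homo replicate 2 the counting intervals of the 2 genes overlapped widely, 0.619 to 1.31 RPKM for Dmrt3 and 0.522 to 1.09 RPKM for Dmrta2. The exact permutation test of either ratio over 4 libraries cannot go below p = 0.33.

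Wt1, the zinc finger gene that marks another subset of dI6 neurons, was at 0.112 and 0.212 RPKM in the Het libraries and at 0.119 and 0.0709 RPKM in the Homo libraries. It had 4 and 12 reads in Het and 6 and 3 reads in Homo, and the genotypes overlapped. The read ratio was 0.562 with a 95% exact interval of 0.219 to 1.35, which holds both a 4-fold loss and no change. A difference in Wt1 was not detectable at this depth. The antisense gene Wt1os ends 19 bases before Wt1 begins and was at 0 in 3 libraries and at 0.0334 RPKM in Het replicate 2. Whether the counting used strand is not given in the sources used here.

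Dmrt1, the gonadal member, had 2 reads in each Het library, 0 in Homo replicate 1 and 2 in Homo replicate 2. These are 0.0768, 0.0485, 0 and 0.0650 RPKM, and each is below the level that 3 reads would give in its library (0.0727 to 0.115 RPKM over the 4 libraries). Its read ratio of 0.499 had a 95% exact interval of 0.0452 to 3.48. Dmrt2, the somite member, had 0 reads in every library. The limit of 3 reads that a count of 0 allows was 0.0701 to 0.111 RPKM, depending on the library, and the exact 95% upper bounds were 0.0861 to 0.136 RPKM. Both genes lie beside Dmrt3, and neither was detected above the level of 3 reads while Dmrt3 had 263 reads.

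**Figure D2:**
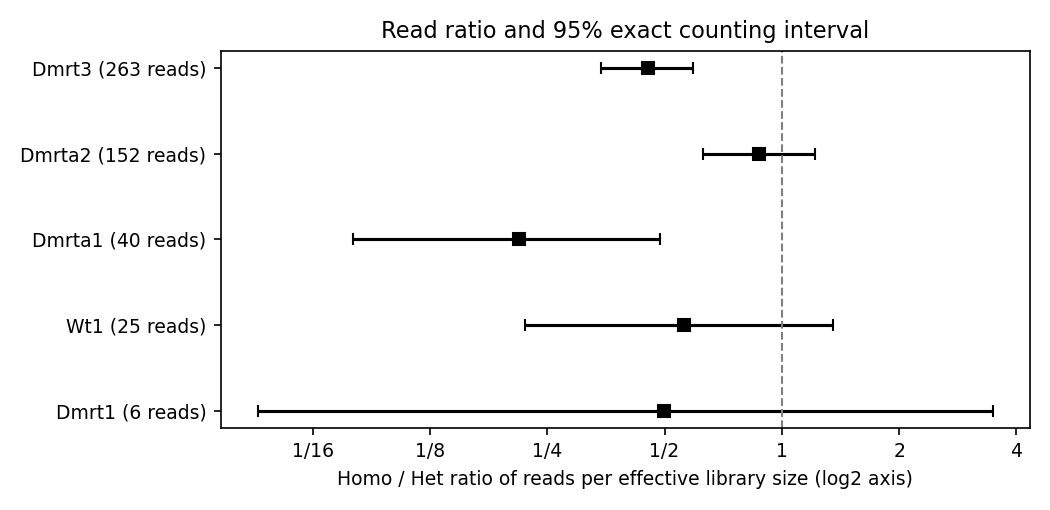
Ratio of reads per effective library size, Homo over Het, for the 5 genes with reads, on a log2 axis. Squares are ratios and bars 95% exact intervals; the intervals of Dmrt3 (0.344 to 0.591) and Dmrta1 (0.0791 to 0.487) lie below 1, and those of Dmrta2, Wt1 and Dmrt1 include 1.

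In the Het libraries the order of mean levels was Dmrt3, Dmrta2, Dmrta1, Wt1, Dmrt1 and Dmrt2.  Dmrt3 stood above Dmrta2 and Dmrta2 above Dmrta1 with no overlap of their counting intervals in either Het library. Dmrta1 and Wt1 had overlapping intervals in both Het libraries, as had Wt1 and Dmrt1, so their order is not resolved. In the Homo libraries Dmrt3 and Dmrta2 were still the highest 2, and the other 4 genes were within counting error of each other.

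Apart from Dmrt3, itself beside Dmrt1, no tested gene beside the member loci on the chromosome was called. Kank1, 71.1 kb before Dmrt1, was at 1.93, 2.27, 3.01 and 2.30 RPKM in Het 1, Het 2, Homo 1 and Homo 2 (log2 fold change 0.32, limma adjusted p = 0.241). Smarca2, a chromatin remodelling ATPase 926 kb after Dmrt2, had a log2 fold change of 0.02 (adjusted p = 0.928), with a sign that changed under other settings. The uncharacterized gene 2610016A17Rik next to Dmrt2 was at 0 in every library. Beside Dmrta2, Faf1 changed by -0.10 (adjusted p = 0.251), and the neuronal RNA-binding protein gene Elavl4 by 0.23 (adjusted p = 0.0233), under the fold of 1.5. Cdkn2b and Zfp352 beside Dmrta1, and Them7 beside Wt1, were at or below 0.0525 RPKM in every library. Members and neighbours under the test level were not part of that test.

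The transcription factor code that dI6 neurons share with other classes was mostly lower in Homo. Of its 5 genes, all tested, 4 were called lower and 1 higher, against 2.67% and 3.65% of genes tested. The median log2 fold change was -2.12, against 0.010 over all genes tested. This list was chosen with earlier results of these data known, so its counts describe these genes and are no independent support. Pax2 fell from 106.4 and 119.2 to 17.7 and 18.6 RPKM (log2 fold change -2.62, adjusted p = 5.02e-06). Lhx1 fell by 2.48 and Lhx5 fell by 2.12 on the log2 scale. Lbx1, needed for the identity of dI4 to dI6 neurons, fell from 89.3 and 105.9 to 59.6 and 68.1 RPKM, a log2 fold change of -0.61 just past the fold of 1.5 (adjusted p = 0.00759). Bhlhe22, a basic helix-loop-helix gene of several interneuron classes, rose from 3.87 and 3.92 to 10.7 and 11.2 RPKM (log2 fold change 1.47). The Lbx1 call was lost without Het replicate 2 (-0.49) or Homo replicate 1 (-0.51), where the change was under the fold of 1.5. It was also lost with no lower limit on RPKM (-0.61, limma adjusted p = 0.212).

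The 4 genes of inhibitory transmission were all called lower, against 2.67% of genes tested, with a median log2 fold change of -2.50. They encode the GABA-synthesizing enzymes (Gad1, -2.17, and Gad2, -2.60), the vesicular transporter of GABA and glycine (Slc32a1, -2.46) and the neuronal glycine transporter (Slc6a5, -2.53). Their standard errors were 0.0597 to 0.101, smaller than the 0.203 of Dmrt3, which has far fewer reads. dI6 and dI4 neurons both use these genes. The transmitter list, too, was chosen with earlier results of these data known, so its count is no independent support.

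Of the 8 genes of progenitors near the dorsal-ventral boundary, 7 were tested, 4 were called higher, 0 were called lower and 3 were not called. Dbx1, a gene of the p0 progenitors next to those of dI6, rose from 0.208 and 0.368 to 1.42 and 1.58 RPKM (log2 fold change 2.08, adjusted p = 0.00889), and it reached the test level in Homo alone. The proneural genes Neurog1 and Neurog2 rose by 1.79 and 0.81 on the log2 scale. The patterning gene Irx3 rose by 0.60, just past the fold needed for a call. The Irx3 call was lost with limma voom (0.58), quantile normalization (0.57) and limma eBayes without a trend (adjusted p = 0.0536). It was also lost with no lower limit on RPKM, without Het replicate 1 (0.46) and without Homo replicate 2 (0.51). The Dbx1 call was lost with no lower limit on RPKM, without Homo replicate 1 (2.15) and without Homo replicate 2 (2.00). The changes of Pax3, Pax6 and Pax7 were -0.09, 0.26 and -0.35. Dbx2, under the test level, was at 0.533 and 0.312 RPKM in Het and at 0.812 and 0.773 RPKM in Homo. Over the genes tested, 3.65% were called higher. The list of boundary progenitor genes was also chosen with earlier results of these data known, so its count is no independent support.

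**Figure D3:**
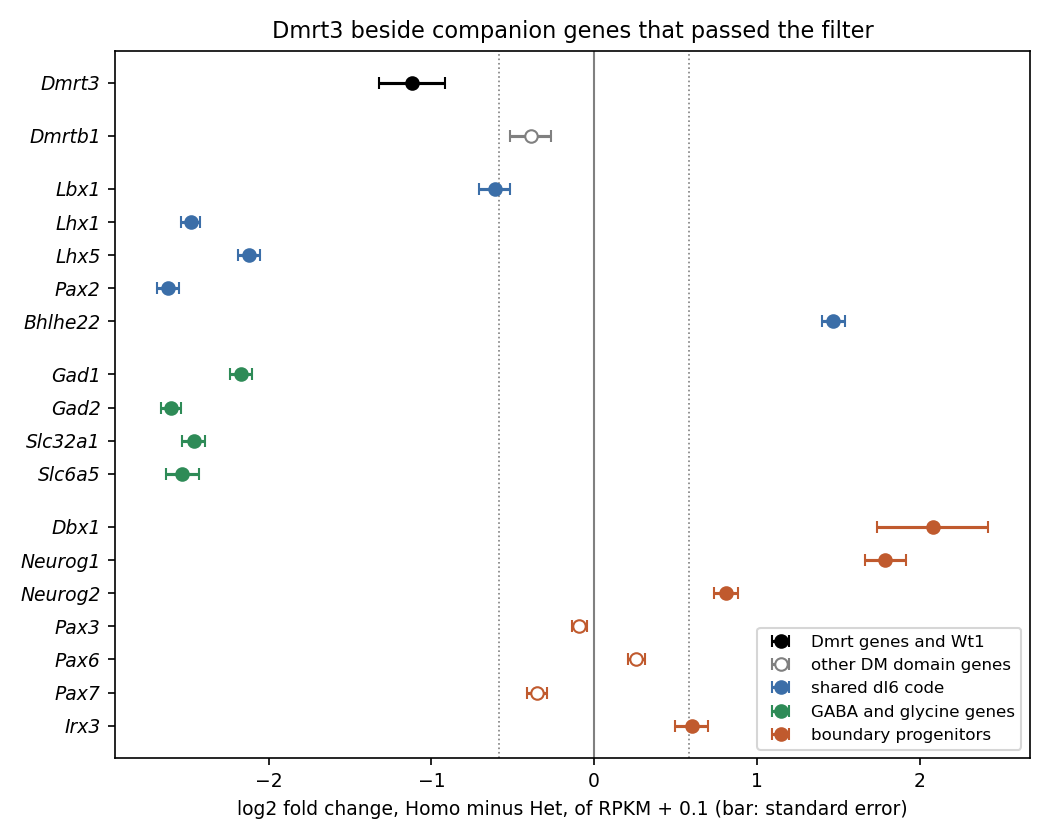
Log2 fold change (Homo minus Het) of RPKM + 0.1 for Dmrt3 and the tested genes of 4 companion groups; bars are standard errors, filled points are called, and dotted lines mark a fold of 1.5. Dmrt3 at -1.12 lies between Lbx1 at -0.61 and the group of Pax2, Lhx1, Lhx5 and inhibitory transmission genes at -2.12 to -2.62.

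The log2 fold change of Dmrt3 was smaller in size than those of Pax2, Lhx1, Lhx5 and the transmitter genes, and larger than that of Lbx1. Per 100 RPKM of Pax2, Dmrt3 was at 2.34 and 2.14 RPKM in the Het libraries and at 7.54 and 4.93 RPKM in the Homo libraries. Its level per 100 RPKM of Lhx1 went from 2.07 and 1.95 to 5.99 and 4.07, and per 100 RPKM of Gad2 from 9.72 and 10.2 to 32.4 and 22.5. Against each of Lhx1, Lhx5, Pax2 and the 4 transmitter genes, both Homo libraries had a higher ratio than both Het libraries. These ratios all share the Dmrt3 value and restate the larger falls of those genes, so they are not separate observations. Per 100 RPKM of Lbx1, in contrast, Dmrt3 was at 2.79 and 2.41 RPKM in Het and at 2.24 and 1.35 RPKM in Homo, a mean ratio 0.689 times that of Het. The gap between the lowest Het and the highest Homo value there was small beside the spread of the Homo libraries. With 4 libraries the exact permutation test of these ratios cannot go below p = 0.33, so the differences between folds are given as values.

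**Figure D4:**
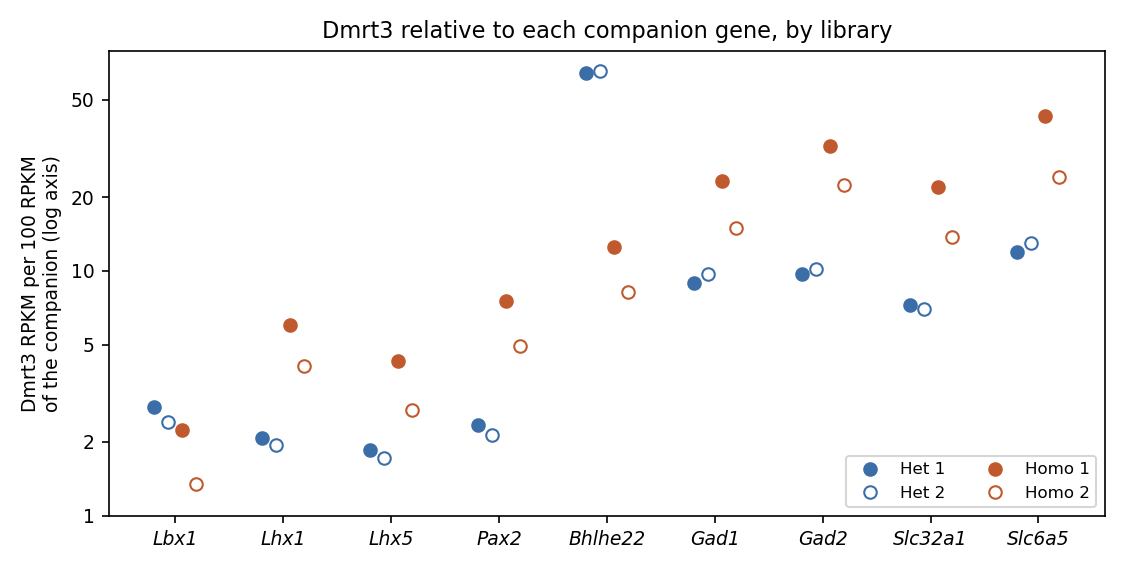
Dmrt3 RPKM per 100 RPKM of each companion gene in the 4 libraries, on a log axis; filled points are replicate 1 and open points replicate 2. The Homo points lie above the Het points for Lhx1, Lhx5, Pax2 and the 4 transmitter genes, and below them for Lbx1 and Bhlhe22.

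Markers of other neuron classes were read as well. The V0 genes Evx1 and Evx2 were at most at 0.381 RPKM in any library. En1, the V1 homeodomain gene, was at 0.102 and 0.214 RPKM in Het and at 0.771 and 1.03 RPKM in Homo, with a mean under 1 in both genotypes. Foxd3, a V1 gene that dorsal interneurons also use, fell from 10.1 and 12.8 to 4.20 and 4.25 RPKM (log2 fold change -1.41). Of the 5 dI1 genes only Lhx2 was tested, through its Homo level, and it rose from 0.644 and 0.658 to 1.37 and 1.53 RPKM (log2 fold change 1.05). The other 4 dI1 genes were at most at 0.783 RPKM in any library, and Barhl1 was lower in both Homo (0.383 and 0.435 RPKM) than in both Het libraries (0.538 and 0.473 RPKM). So were 14.4% of genes under the test level with a value above 0, while Atoh1, Barhl2 and Lhx9 overlapped between genotypes. The 5 dI3 and dI5 genes were all called higher (3.65% of genes tested were), with a median log2 fold change of 2.50, among them Tlx3 at 4.62 and 5.63 RPKM in Het and 86.2 and 94.1 RPKM in Homo. Tlx1, with a mean of 0.925 RPKM in Het and 3.96 RPKM in Homo, reached the test level in Homo alone, so it could only be called higher. The marker lists were chosen with earlier results of these data known, so the dI3 and dI5 count is no independent support.

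The other DM domain genes of the table were low with 1 exception. Dmrtb1, a germ cell gene, was at 7.70 and 6.57 RPKM in the Het libraries and at 6.03 and 4.85 RPKM in the Homo libraries, above Dmrt3 in all 4. The difference was -0.39 on the log2 scale with a standard error of 0.127 and was not called (limma, adjusted p = 0.0788). Dmrtc1b, Dmrtc1c1 and Dmrtc1c2 were listed at 0 in every library, Dmrtc1a was at most at 0.125 RPKM and Dmrtc2 at most at 0.0337 RPKM.

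The members are also expressed outside the spinal cord, so markers of those tissues were read beside them. Forebrain, where Dmrta1 and Dmrta2 are known, had all 5 markers at or below 0.0737 RPKM, with Emx2 and Otx2 at 0. Germ cell markers summed to 0.243 and 0.550 RPKM in Het and 0.526 and 0.702 RPKM in Homo, with Dazl and Dppa3 at 0. Of the urogenital and mesothelial markers, where Wt1 is known, Upk3b was at 0, Osr1, Tcf21 and Gata4 were at most at 0.184 RPKM, and Podxl, which neurons also express, was at 10.8 to 12.3 RPKM. The 8 somite and mesenchyme markers summed to 12.7 and 15.0 RPKM in Het and 11.3 and 13.3 RPKM in Homo, most of it Tcf15 (8.52 to 11.3 RPKM), while the myogenic gene Myf5 was at or below 0.0295 RPKM. Of the other somite and mesenchyme markers, Meox2 was at 0.110 and 0.140 RPKM in Het and 0.0524 and 0.0311 RPKM in Homo. Prrx1 was at 0.197 and 0.212 RPKM in Het and 0.0826 and 0.137 RPKM in Homo. Col1a2 was at 1.45 and 1.70 RPKM in Het and 1.16 and 1.34 RPKM in Homo (log2 fold change -0.31, adjusted p = 0.298). These 3 genes were lower in both Homo than in both Het libraries. So were 30.3% of the genes tested and 14.4% of those under the test level with a value above 0. Meox1 of the same list went the other way, at 0.157 and 0.148 RPKM in Het and 0.195 and 0.298 RPKM in Homo. The remaining markers of that list overlapped between genotypes. Of these 4 sums only the urogenital one, nearly all of it Podxl, was lower in both Homo than in both Het libraries, and its Homo replicate 1 stood at 11.0 RPKM against 12.1 and 12.4 RPKM in Het. The part of such cells in the Dmrt3 and Dmrta1 differences was not tested.

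The sums of endothelial markers (1.73 to 1.94 RPKM) and of erythroid markers (40.1 to 43.5 RPKM, all from Hbb-y and Hba-x) overlapped between genotypes. Among the endothelial markers, Tek was at 0.2021 and 0.1625 RPKM in Het and at 0.1046 and 0.1555 RPKM in Homo. Both Homo values were lower, as in 14.4% of genes under the test level with a value above 0. Cdh5, Pecam1 and Kdr overlapped between genotypes. Singly, Hbb-y was higher in both Homo libraries (log2 fold change 0.14, adjusted p = 0.182) and Hba-x lower in both (-0.10, adjusted p = 0.238), and neither was called. Their part in the Dmrt3 difference was likewise not tested.

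Across all tested genes, those most like Dmrt3 over the 4 libraries were Nkain3, Sox7 and Ifitm3. Likeness was the largest absolute difference, in any library, of log2(RPKM + 0.1) centred on the mean of the 4 libraries. It was 0.051 for Nkain3, 0.060 for Sox7 and 0.138 for Ifitm3, and 15 genes lay within 0.2. These 3 genes are low and reached the test level in Het alone, with 1.20 to 1.56 RPKM in the Het and 0.451 to 0.772 RPKM in the Homo libraries, and with 4 libraries such likeness describes the genotype difference and little more.

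The Dmrt3 difference was computed under 12 other settings as well. The log2 fold change was between -1.37 and -0.74 in all of them, and 4 did not pass the call: no lower limit on RPKM, and leaving out either Het library or Homo replicate 2. On the recovered reads with limma voom it was -1.16 with a standard error of 0.214 (adjusted p = 0.000209). The smallest change, -0.74, came with a pseudocount of 1, which is close to the Homo level of the gene. Without Homo replicate 1, Dmrt3 met the test level in Het alone, so that fit could only find it lower.

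**Figure D5:**
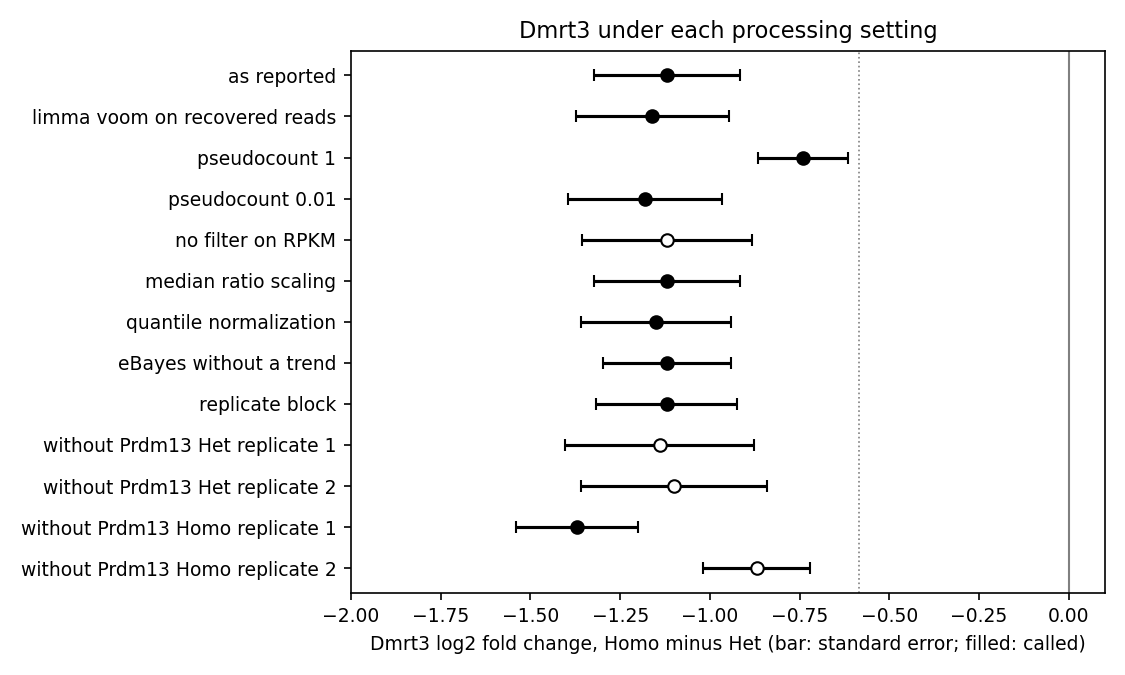
Dmrt3 log2 fold change (Homo minus Het) under the reported and the other settings; bars are standard errors, filled points passed the call, and the dotted line marks a fold of 1.5. All 13 values are negative, from -1.37 to -0.74, and 4 are open.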

How the data were processed

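Libraries were grouped by the genotype in the submitters' labels. Per the labels and the study's methods, the authors aligned reads to mm10 with TopHat2 2.1.0, counted reads on RefSeq exons with featureCounts, normalized with TMM in edgeR 3.6.8 and deposited the RPKM values of 24421 genes. No further scaling was applied. Low RPKM values of a gene step by the worth of 1 read, which depends on its exon length and on library size. Both were solved for with GENCODE vM21 lengths as a guide, and 99.99% of 19200 genes above 0 gave whole reads within 0.05 reads. For 18449 genes the solved length could be compared with the annotation, and 71.61% differed by at most 5%.

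Effective library sizes were 11572778 and 18323396 (Het) and 16258830 and 13678321 (Homo). A floor of 3 reads was used. Intervals are exact at the 95% level (Clopper-Pearson for ratios). Genes were compared with limma 3.58.1 (lmFit, eBayes with a trend, two-sided, Benjamini-Hochberg over 12046 genes) in R 4.3.3, and drawn or tabulated with Python 3.11.15, numpy 2.4.6, pandas 2.3.3, scipy 1.17.1 and matplotlib 3.10.9. Read recovery and both tests were tested on simulated data with known answers. There the recovered reads were exact for 99.38% of 6000 genes. The main limma test called 193 of the 200 tested genes that had been given a 3-fold difference, and 20 genes given none. The limma voom test called 195 of the 197 tested genes given that difference, and 1 gene given none. The members, companion lists and marker lists were chosen with earlier results of these data known. Besides the members, genes were named where they were companion list genes past the test level, up to 2 leading genes of each marker list, nearest neighbours, or the 3 genes most like Dmrt3. Other marker, DM domain and low companion genes, and those at 0, were named after their values were seen. Alternatives were other pseudocounts, no filter, 2 other scalings, eBayes without a trend, a replicate block, leaving out each library and limma voom. The results of 1 marker list are not reported here. ChIP-seq files were not used here.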

Additional observations from a re-analysis of the deposited data

How the results depend on the processing

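With no lower limit on RPKM the calls over all genes went from 762 to 44 (30 higher and 14 lower), with 24421 genes tested. Under that setting the shared dI6 code kept 1 lower call, the inhibitory transmission genes 1 and the boundary progenitors 0 higher calls, and Dmrt3 had a log2 fold change of -1.12 that no longer passed (limma, adjusted p = 0.196). Leaving out each library in turn, which leaves 1 genotype without a spread of its own, gave 470 to 687 calls, 258 to 437 higher and 212 to 266 lower, with the lowest totals without Homo replicate 2. It gave Dmrt3 values of -1.37 to -0.87, which passed only without Homo replicate 1 (adjusted p = 0.0207), and 2 to 4 higher calls among the boundary progenitors. The numbers of the replicates pair nothing in the labels, and the deviations of same-numbered libraries had a correlation of 0.0475 over 12046 genes. With the replicate number as a block there were 801 calls (459 higher, 342 lower), and Dmrt3 was at -1.12 (adjusted p = 0.00956). Smarca2, near 0 throughout, changed sign with quantile normalization (-0.0041), without Het replicate 2 (-0.09) and without Homo replicate 2 (-0.03), over a range of -0.09 to 0.12 with each library left out. Of 311 values for 26 single genes, 269 kept direction and side of the threshold, 39 lost a call and 3 changed sign, and the cause was not tested. Depth limits Wt1, Dmrt1, Dmrt2 and the Homo values of Dmrta1.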
